A study of Drosophila melanogaster with 6 samples.

Results

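Male and female cells were compared within the same control libraries of a single-cell RNA experiment on dissociated Drosophila melanogaster brains. Sex was read from each cell barcode, because each library mixed brains of both sexes, 20 of each. A barcode was kept when it held at least 2000 unique molecular identifiers (UMIs, counts of captured RNA molecules) and at most 20% of them came from mitochondrial genes. Cells were chosen by their measured roX RNA. A barcode was called male when lncRNA:roX1 and lncRNA:roX2 together made up at least 0.3% of its UMIs, and female when they made up at most 0.1%. Of 19896 kept control barcodes, 12505 were male, 6641 were female and 750 fell between the limits and were left out. The whole series held 55094 kept barcodes.

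The control flies carried the elav-GAL4(x)/+ genotype, in which GAL4 is driven by the promoter of the neuronal gene elav, and no other transgene is named for them. This genotype is given for pools of both sexes. If the (x) places the driver on X, its copies could differ between males and females. Such a difference cannot be told apart from sex here. There were 3 control libraries, and each gave 1 male and 1 female sum of UMIs, which were compared as a pair. The 3 libraries of the tau P251L knock-in (elav-tau P251L KI) were sexed by the same rule and were used where stated, with 32594 sexed barcodes of 35198 kept. Fly age, and whether the pools of one genotype came from separate crosses, are not given in the sources used here, so p-values measure the spread between these libraries.

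In Drosophila, females have 2 X chromosomes and males have 1, and the single male X is transcribed at a raised rate by the male-specific lethal complex, which holds the MSL proteins, the acetyltransferase MOF, the helicase MLE and the noncoding roX RNAs. Females lack the complex because the RNA-binding protein Sxl blocks production of MSL-2. Sxl also starts the splicing cascade through tra and tra2 to the sex-specific transcription factors dsx and fru, which shape sexual differences in neurons.

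The summed depth was uneven. Control replicate 1 gave 2461110 male and 3819037 female UMIs, replicate 2 gave 47728205 and 17581628, and replicate 3 gave 4452279 and 5263600. Barcodes were shared between control libraries by sequence in 2 to 9 cases per pair of libraries. The 7 neuron markers summed to between 8230 and 10904 CPM (UMIs of a gene scaled to a common library total) in all 6 sums, and each of them was detected in every sum. Glia and muscle markers summed to at most 633 and 6.31 CPM.

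The roX RNAs chose the cells, so their levels are given as a description. The median roX share of male barcodes was 0.597%, 0.883% and 0.999% in control replicates 1 to 3, and the median of female barcodes was 0 in each. lncRNA:roX1 reached 5103, 7057 and 7579 CPM in the male sums and 30.4, 134 and 68.8 CPM in the female sums. lncRNA:roX2 was less abundant, with 1254, 1590 and 1857 CPM in the male sums and 7.86, 25.1 and 11.2 CPM in the female sums. The UMIs of roX1 outnumbered those of roX2 by 4.07, 4.44 and 4.08 to 1 in the male sums. Nearly empty barcodes had 10 to 100 UMIs and were taken to hold mostly free RNA. They carried 311, 2337 and 926 CPM of roX1, and the female values lay below these in every library. Replicate 2 had only 1874 such barcodes, with 143 roX1 UMIs, against 47419 and 23174 barcodes in replicates 1 and 3. In the annotation of build BDGP6.54, roX1 lies on X from 3857230 to 3862697 on the minus strand and roX2 on X from 11579065 to 11580432 on the plus strand.

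**Figure D1:**
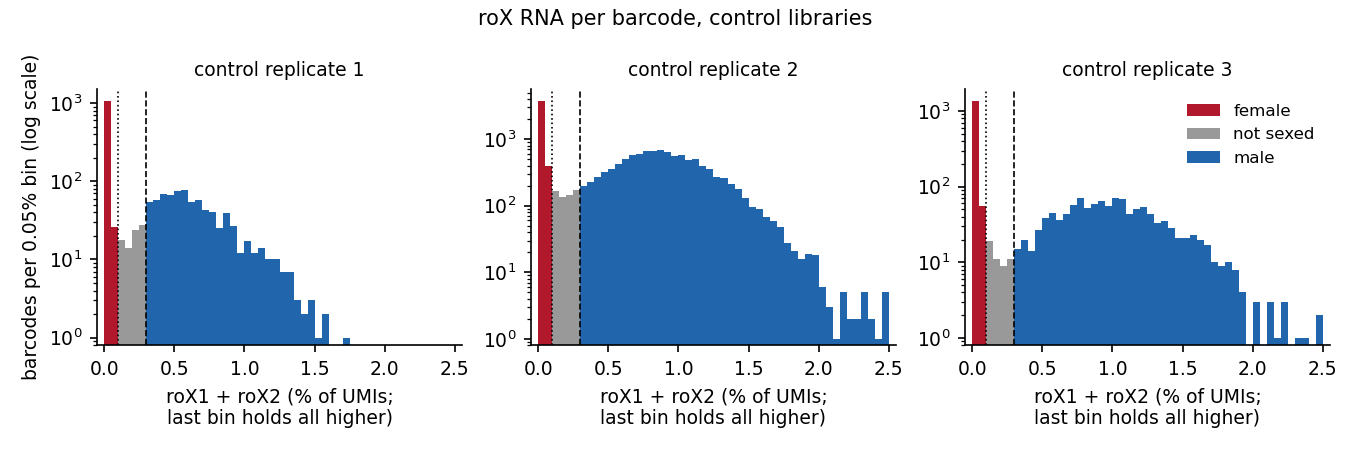
Share of UMIs in lncRNA:roX1 plus lncRNA:roX2 per kept barcode in the 3 control libraries, in bins of 0.05% with the number of barcodes on a log axis. The dotted line is the female limit of 0.1%, the dashed line is the male limit of 0.3%, and barcodes between them (grey) were left out. A female peak at 0 and a broad male peak are separated by a trough in each library.

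Barcodes near the limits were counted in each library. In replicate 1, 55 barcodes were just inside the male limit (0.3% to 0.35%) and 28 just below it, and 26 were just inside the female limit (0.05% to 0.1%) and 18 just above it. In the same order, replicate 2 had 199, 174, 389 and 164 barcodes, and replicate 3 had 15, 11, 56 and 19. The unsexed barcodes had higher median UMI counts (3190.5, 4326.5 and 3465) than the male (2740, 3574 and 3049) or female barcodes (2744, 3284.5 and 2972). In clusters of at least 50 barcodes, built without the roX RNAs, the median roX share of male barcodes ranged from 0.643% to 1.12% in replicate 2, so the male roX level differed between clusters.

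Male barcodes made up 41.9% of sexed barcodes in replicate 1 (exact binomial 95% interval 39.7% to 44.2%), 71.8% in replicate 2 (71.1% to 72.5%) and 45.5% in replicate 3 (43.6% to 47.5%). The mean was 53.1% ± 16.3 (SD, n = 3), although the labels give equal numbers of brains. The intervals cover counting error only. Replicate 2 stood apart throughout its clusters, where the male share ran from 62% to 78.8% over 33 clusters, against 31.2% to 48.4% over 8 clusters of replicate 1 and 36.9% to 57.4% over 14 clusters of replicate 3. Thinned to 2000 UMIs each, they held medians of 1015 and 1008 genes, 990 and 989 genes, and 961 and 962 genes (two-sided exact sign-flip permutation p = 0.75, n = 3 pairs). The smallest p that 3 pairs allow is 0.25.

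Apart from the roX RNAs, 3 of 8044 features tested differed between the sexes at an adjusted p under 0.05 in edgeR's paired quasi-likelihood test, which is 0.0373% of the features. The female-determining gene Sxl was lower in male cells (1 feature, 0.0124%), and the mucin-like gene Muc14A and the long noncoding RNA lncRNA:cherub were higher (2 features, 0.0249%). An unadjusted p under 0.05 was reached by 942 features (11.7%), and 3088 (38.4%) had the same direction in all 3 pairs. DESeq2 called 157 (1.95%), including the 3. With 3 pairs the count turned on single libraries: it was 279 without replicate 1, 4 without replicate 2, none of which was among the 3, and 0 without replicate 3.

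Sxl stood at 520, 671 and 672 CPM in the male sums of replicates 1 to 3 and at 909, 1121 and 1192.5 CPM in the female sums, and the groups did not overlap. The fitted log2 difference, male minus female, was -0.79 (SE 0.034, adjusted p = 0.0176), which is 1.73-fold more in females. Sxl transcripts are made in both sexes and differ by splicing, so these counts do not tell the female-specific isoform from the male one. Nearly empty barcodes held 137, 490 and 388 CPM of Sxl, below both sexes in each library, with the replicate 2 value from 30 UMIs. Sxl lies on X from 7074550 to 7098053.

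Muc14A, on X from 16009114 to 16061722, showed the largest change among the 3. The male sums held 62.5, 85.7 and 57.0 CPM and the female sums 6.30, 5.56 and 4.66 CPM, so that male cells of every library were far above female cells of any. The fitted log2 difference was 3.69 (SE 0.15, adjusted p = 0.0176), or 12.9-fold.

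The noncoding RNA lncRNA:cherub is known from neural stem cells and their tumours. It lies on 3R from 11247631 to 11256123 and was the autosomal feature among the 3. Male sums held 81.3, 60.6 and 77.4 CPM and female sums 42.8, 28.4 and 38.5 CPM, without overlap. The log2 difference was 1.01 (SE 0.065, adjusted p = 0.0435), or 2.02-fold. Under the 17 alternative settings Sxl and lncRNA:cherub were called in 12 and Muc14A in 13. All 3 calls ended without replicate 2, without replicate 3, with a single roX limit of 0.2% and at a minimum of 4000 UMIs, and those of Sxl and cherub also without the library as a block (edgeR adjusted p = 0.406 for both). Over all 17 alternatives the log2 differences of Sxl stayed between -0.82 and -0.71, those of Muc14A between 3.29 and 4.03, and those of cherub between 0.95 and 1.19.

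**Figure D2:**
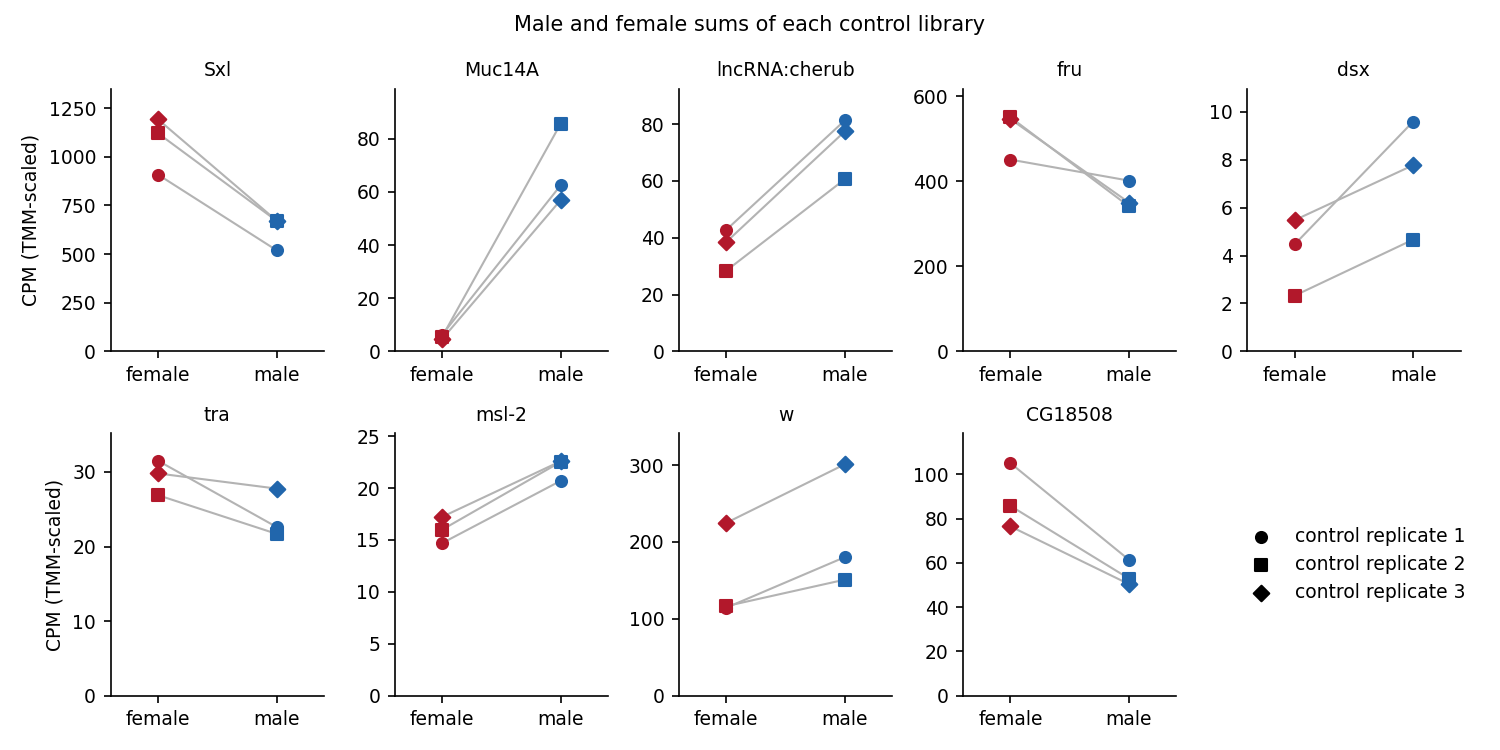
CPM scaled with TMM factors for 9 genes in the female (red) and male (blue) sums of the control libraries, with each library's pair joined by a grey line and its own symbol. Sxl (adjusted p = 0.0176), Muc14A and lncRNA:cherub passed the test, and each of the 9 genes had 1 direction in the 3 pairs.

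The sex determination genes were all measured, and 1 of 10 passed the test. The neuronal gene fru held 402, 341 and 350 CPM in males and 451, 551 and 547 CPM in females, with no overlap, and replicate 1 showed the smallest gap. Its log2 difference was -0.50 (SE 0.11, unadjusted p = 0.00741, adjusted p = 0.274), and it passed the threshold in 7 of the 17 alternatives, DESeq2 among them. dsx, which encodes the sex-specific DSX proteins, was sparse, at 9.59, 4.66 and 7.77 CPM in males and 4.46, 2.33 and 5.47 CPM in females, a log2 difference of 0.87 (SE 0.21, adjusted p = 0.286). Each male value exceeded its own library's female value, although the groups overlapped. tra, the splicing factor that Sxl controls, had a log2 difference of -0.29 (SE 0.11, adjusted p = 0.423) with 22.6, 21.7 and 27.8 CPM in males and 31.5, 26.9 and 29.8 CPM in females. Its partner tra2 had 0.00 (SE 0.095), and its 3 pairs went in both directions. The X-linked splicing factor snf had -0.27 and was lower in males in each pair (edgeR adjusted p = 0.36). The median over the 10 genes was 0.03, against 0.01 over all features tested. In all 3 pairs 5 were higher and 4 lower, where 19.4% and 19% of all features tested were.

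None of the 9 dosage compensation genes passed the test, and their median log2 difference was 0.11. msl-2, the subunit that Sxl represses in females, had the largest difference among them: 20.7, 22.5 and 22.6 CPM in males and 14.7, 15.99 and 17.2 CPM in females, with no overlap. The log2 difference was 0.46 (SE 0.10, unadjusted p = 0.00721, adjusted p = 0.273), and it stayed between 0.31 and 0.50 under the alternatives without passing in any. The scaffold msl-1 had 0.12 (SE 0.070), the chromodomain subunit msl-3 had -0.21 (SE 0.22), the acetyltransferase mof had 0.15 (SE 0.15) and the helicase mle had 0.14 (SE 0.055). The zinc finger protein Clamp, which brings the complex to the X, had 0.02 (SE 0.073), and Pof, which coats chromosome 4, had 0.11 (SE 0.12). Higher in males in all 3 pairs were 4 of the 9 genes, and none was lower in all 3, where 19.4% and 19% of all features tested were.

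Across the whole X chromosome, male and female cells had almost the same RNA level. The median log2 ratio of 1374 X features was -0.02, -0.04 and -0.05 in replicates 1 to 3, and the median of 6467 features on chromosomes 2 and 3 was 0.01 in each. The X median minus the autosomal median was -0.03, -0.05 and -0.06, a mean of -0.05 ± 0.014 (SD, n = 3; two-sided exact sign-flip permutation p = 0.25, the smallest possible), a relative difference of -3.102%. These ratios are relative to the total of each sum. Among the most abundant features the gap was -0.07, -0.07 and -0.08 in the 3 libraries, and among the least abundant it was 0.05, -0.00 and -0.00. At middle abundance, from 14.2 to 52.9 CPM, it was -0.004, -0.042 and -0.041. With every detected feature included it had a mean of -0.01, from 0, -0.02 and 0 in the 3 libraries. Each ratio adds 1 CPM to both values, which draws the ratios of sparse features toward 0. What part that step had in the trend with abundance was not tested. X features were lower in males in all 3 pairs in 30.3% of cases and higher in 16.6%, against 16.99% and 19.7% on chromosomes 2 and 3.

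Chromosome 4, a small autosome that Pof marks, was the arm with the highest median in the control libraries. Its 161 features had medians of 0.11, 0.05 and 0.05, and 29.8% were higher in males in all 3 pairs. In the knock-in libraries its medians were 0.02, 0.04 and -0.02, and 17.7% were higher in all 3 pairs, against 17.3% on chromosomes 2 and 3. Within the control marker classes described below, its median fitted difference was -0.03 (Kenyon), 0.02 (VAChT/ChAT), 0.06 (VGlut) and 0.05 (Gad1/VGAT). The 13 mitochondrially encoded features had a median of -0.02 and showed both directions between libraries.

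**Figure D3:**
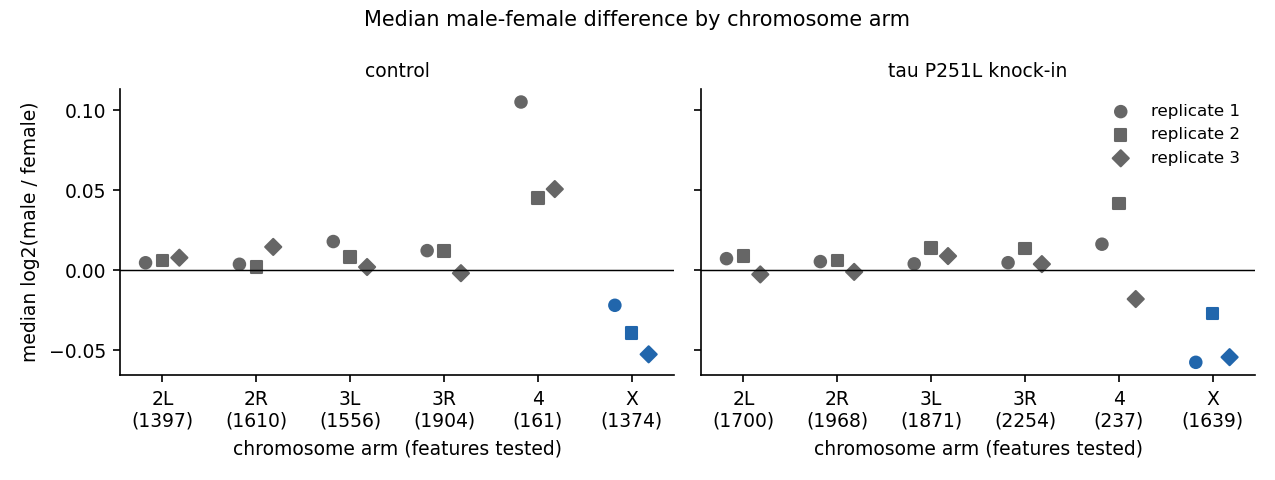
Median log2 ratio of male to female CPM by chromosome arm, with 1 symbol for each library, for control (left) and knock-in libraries (right); the number of features tested is under each arm. The X medians (blue) lie between -0.02 and -0.05 in the control libraries, below all other arms shown. Chromosome 4 lies at 0.05 to 0.11 in the control libraries and at -0.02 to 0.04 in the knock-in libraries.

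The Y chromosome gave almost no counts. Of 56 annotated Y features listed, 11 had a UMI in the control sums and none was abundant enough to test. All Y features together gave 6, 38 and 5 UMIs in the male sums and 4, 11 and 4 in the female sums, that is 2.44, 0.796 and 1.12 CPM against 1.05, 0.626 and 0.760 CPM. Most came from a single transposable element feature, RR48365_transposable_element, with 47 UMIs in both sexes together. The Y therefore gave no check of the sexing at this depth.

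The roX genes hold strong binding sites of the complex, and 17 genes within 50 kb of them were tested. None passed in the control libraries, while CG42541, nod and rho-4 passed in the knock-in libraries (log2 differences 0.33, 0.79 and 0.51, adjusted p = 0.00684, 0.0147 and 0.0109). There, 1.49% of all features tested and 6.96% of X features passed. On the roX1 side, at a distance of 28800 bases, CG42541 held 1001, 1024 and 1137 CPM in males and 856, 811 and 943 CPM in females, without overlap. Its log2 difference was 0.28 (SE 0.036, adjusted p = 0.161), and it passed in 7 of 17 alternatives. On the roX2 side, Kmn1, a kinetochore protein, held 33.4, 38.0 and 32.0 CPM in males and 14.96, 24.4 and 19.9 CPM in females, a log2 difference of 0.79 (SE 0.13, adjusted p = 0.192), which passed in 6 alternatives. CG11699 had 0.27 (SE 0.055), RpII215, the largest subunit of RNA polymerase II, had 0.25 (SE 0.069), and the kinesin nod, 340 bases from roX2, had 0.67 (SE 0.20) with replicate 1 in the other direction. PGRP-SA, a sensor of bacterial cell wall made by fat body, went the other way, at 4.22, 2.69 and 0.471 CPM in males and 55.4, 7.66 and 8.92 CPM in females (log2 difference -2.51, SE 0.51, adjusted p = 0.254). It passed in 3 alternatives, and its difference was -0.89 without barcodes above 3 times the median UMIs and -0.98 without the yolk-rich barcodes described next. The other 11 genes lay between -0.18 and 0.31.

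RNA of fat body, which lines the head and makes the yolk proteins in females, differed strongly in some libraries. The yolk protein gene Yp1 held 219, 316 and 90.1 CPM in the male sums of replicates 1 to 3, and 6057, 1370 and 78.7 CPM in the female sums. The female excess was thus large in replicate 1, smaller in replicate 2 and absent in replicate 3. The fitted log2 differences were -2.26 (SE 1.05) for Yp1, -2.16 (SE 0.89) for Yp2 and -2.04 (SE 0.82) for Yp3, and none passed (adjusted p = 0.48, 0.446 and 0.444). In the knock-in libraries all 3 passed, with -0.65, -0.57 and -0.64. Free RNA in nearly empty barcodes held 7104, 3825 and 1490 CPM of Yp1.

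Barcodes with at least 5% of their UMIs in the yolk protein genes were few. They were 13 in replicate 1, all female by roX; 46 in replicate 2, with 21 female and 22 male; and 2 in replicate 3, with 1 of each sex. Summed over the 9 fat body markers, male and female sums held 972 and 17958 CPM in replicate 1, 1687 and 6911 in replicate 2, and 428 and 444 in replicate 3; Fbp1, a larval serum protein receptor, was at 0 in 4 of the 6 sums. Leaving those barcodes out raised the number of features called from 3 to 112, a choice made after the data were seen. Without them the differences of Yp1, Yp2 and Yp3 were -0.07, -0.08 and -0.10, and without barcodes above 3 times the median UMIs they were -0.80, -0.77 and -0.80. The yolk-rich barcodes were chosen by the RNA of these same genes, so their removal cannot show what part they had. Without the yolk-rich barcodes Sxl had -0.81, fru -0.55, w 0.43 and CG42541 0.25. The part of these barcodes was not tested, for the yolk genes or for the antimicrobial, hemocyte and glial genes.

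Of the sex-biased head genes, fit, to and Cyp4d21 were too sparse to test, and the odorant-binding gene Obp99b had a log2 difference of -1.52 (SE 0.25, adjusted p = 0.192) from at most 10.5 CPM. Antimicrobial peptide genes, which fat body makes in infection, were also far apart in single libraries, and the library differed by gene. AttC, an attacin, was far apart in replicate 1: it held 97.4, 21.8 and 4.001 CPM in males and 3554, 66.5 and 5.27 CPM in females (adjusted p = 0.389). Scaled to total UMIs, Mtk held 2.84, 7.71 and 2.92 CPM in males and 2.62, 8.19 and 64.2 CPM in females. CecC held 0, 0.440 and 1.12 CPM in males and 0.524, 3.87 and 91.8 CPM in females on that scale. Only 4 of the 15 such genes were abundant enough to test, their log2 differences ran from -3.14 to -0.96, and none passed.

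Of 5 genes that mark hemocytes, the blood cells of the fly, none passed. Hml, which encodes a clotting protein, held 0.383, 0.996 and 0.706 CPM in males and 5.25, 5.39 and 11.8 CPM in females without overlap (log2 difference -2.92, SE 0.37, adjusted p = 0.161). In 4 of the 5 the male value was lower in all 3 pairs: Hml, the phagocytosis receptor NimC1 (-2.39) and the collagen genes Col4a1 (-1.53) and vkg (-1.20). Of all features tested, 19% were lower in all 3 pairs. The summed list stood at 102, 98.0 and 102 CPM in males against 156, 123 and 137 CPM in females. Pxn, a peroxidasin and the most abundant of the 5, had 0.06 (SE 0.076). Of 10 glial genes tested none passed, with a median of -0.20. In all 3 pairs 3 were lower and 1 higher, where 19% and 19.4% of all features tested were. The trehalose transporter Tret1-1 (-1.22, SE 0.16), the citrate transporter Indy (-1.48, SE 0.31) and the receptor moody (-0.43, SE 0.18) had the lower values, the GABA transporter Gat had 0.37 (SE 0.21), and the glial regulator repo had -0.31 (SE 0.20) with both directions. Fewer cells of a type and less RNA per cell cannot be told apart in summed counts.

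Of 25 neuropeptide genes tested, none passed, and their log2 differences ran from -4.60 to 1.24. In all 3 pairs 2 were higher and 3 lower, where 19.4% and 19% of all features tested were. AstA, the precursor of allatostatin A peptides, was lower in males in every library, with 28.4, 94.1 and 175 CPM against 88.7, 166 and 333 CPM (log2 difference -1.07, SE 0.16, adjusted p = 0.187), although the groups overlapped because the libraries differed. Pdf, the clock neuron peptide, was at 1.53, 39.7 and 0.471 CPM in males and 1238, 297 and 0.405 CPM in females, so that its fitted difference of -4.60 (SE 1.29) rested on replicates 1 and 2. Of 12 transmitter identity genes tested none passed, with 5 lower and 3 higher in males in all 3 pairs. Of all features tested, 19% were lower and 19.4% higher in all 3 pairs. The GABA-synthesizing enzyme Gad1 (-0.21, SE 0.056) and the vesicular monoamine transporter Vmat (-0.63, SE 0.14) were among the lower ones. The higher ones were the acetylcholine genes VAChT (0.06, SE 0.038) and ChAT (0.10, SE 0.042) and the dopamine-synthesis enzyme ple (0.87, SE 0.46). Of the 7 neuron markers none passed, and the median was 0.06. In all 3 pairs 5 were higher and 1 lower, where 19.4% and 19% of all features tested were. The synaptic vesicle genes nSyb (0.08, SE 0.025) and Syt1 (0.10, SE 0.032) were higher in each pair, and the RNA-binding protein elav was the lower one (-0.10, SE 0.041). In the knock-in libraries 0 of the 7 markers were higher and 1 was lower in all 3 pairs, with a median of -0.005. tau, the microtubule-associated protein, had 0.00 (SE 0.040).

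The eye pigment transporter w, on X, was higher in males in each pair. It held 180, 151 and 301 CPM in males and 114, 117 and 225 CPM in females, a log2 difference of 0.48 (SE 0.068, adjusted p = 0.179) that passed in 7 of 17 alternatives. Of 14 heat shock genes tested none passed, with a median of 0.09 and a range of -0.08 to 0.23. Of 79 cytosolic ribosomal protein genes none passed, with a median of -0.03. Of the 79, 31 were lower and 9 higher in all 3 pairs, where 19% and 19.4% of all features tested were. The knock-in libraries leaned the other way: 4 of 80 were lower and 14 higher in all 3 pairs, with a median of 0.03. Of 312 transposable element insertions tested, also none passed, with a median of 0.06. Copies of one family can share reads, so single insertions are uncertain.

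The knock-in libraries, which the rule for the control cells did not use, were tested in the same way. Here 145 of 9714 features (1.49%) passed, 58 higher (0.597%) and 87 lower (0.896%) in males, of which 114 were on X. X features were 78.6% of those called and 16.9% of those tested. The pairing mattered, since without the library as a block none of the features passed. Of the 145, 136 were also tested in the controls, where 112 (82.4%) had the same direction in all 3 control pairs, 42 of 55 higher ones and 70 of 81 lower ones. For all features tested in the controls, 19.4% were higher and 19% lower in all 3 pairs. An unadjusted p under 0.05 was reached in the controls by 104 of the 136, and Sxl, Muc14A and lncRNA:cherub passed in both genotypes.

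The features called in the knock-in libraries, named here after their values were seen, included several near absent from female cells. brv3, a channel gene on X, held 5.37, 5.57 and 8.002 CPM in the control males and 0, 0.454 and 0 CPM in the control females, from 14, 263 and 34 male and 0, 8 and 0 female UMIs. Its log2 difference was 4.39 (SE 0.63, adjusted p = 0.179) in the controls and 4.37 (SE 0.33, adjusted p = 0.00274) in the knock-in libraries. CG4586 on X had 4.41 (SE 0.40) and 3.49 (SE 0.27), and Dok, which encodes an adaptor of kinase signalling, had 2.57 (SE 0.31) and 2.96 (SE 0.395). The X-linked insertion FBti0062442 had 3.97 and 3.17, the forkhead gene Crg-1 had 3.66 and 1.77, and Axs, a chromosome segregation gene, had 1.58 and 1.395.

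In the other direction, CG15459 held 1.15, 0.784 and 0.706 CPM in control males and 13.1, 5.22 and 8.11 CPM in control females. Its log2 difference was -3.02 (SE 0.27) in the controls and -1.85 (SE 0.26, adjusted p = 0.0209) in the knock-in libraries. CG1368 had -2.18 and -2.23. Most differences were smaller: 109 of the 145 were below 1 in absolute log2, with a median of 0.49. Among abundant X genes, the growth regulator Myc had -0.52 (SE 0.053) in the controls and -0.40 in the knock-in, lncRNA:CR34335 had -0.58 and -0.37, the RNA-binding protein Imp had -0.25 and -0.38, the adhesion molecule Fas2 had -0.23 and -0.29, and the teneurin Ten-a had -0.20 and -0.22. These 5 were lower in males in each of the 6 pairs.

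A test of the difference itself, the interaction of sex and genotype over the 6 libraries, called none of 9546 features by edgeR, where 518 (5.43%) were under 0.05 before adjustment and the smallest adjusted p was 0.0532. The X median minus the autosomal median was -0.06, -0.04 and -0.06 in the knock-in libraries, a mean of -0.05 ± 0.013 (SD, n = 3).

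**Figure D4:**
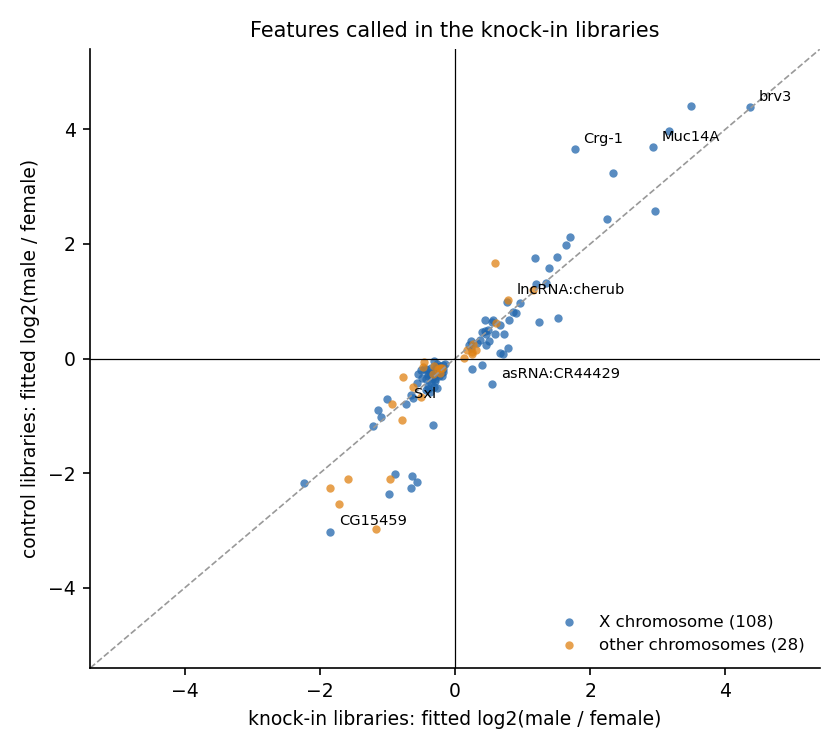
Fitted log2 difference, male minus female, in control libraries (vertical) against knock-in libraries (horizontal) for the 136 features called in the knock-in and tested in both, with X features in blue and others in orange; the dashed line marks equal values. Most points lie in the quadrants of equal sign; 112 had the same direction in all 3 control pairs.

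Kept barcodes were also split into marker classes by their UMIs in fixed markers, which are ranges of expression and not cell types. The VAChT/ChAT class, with markers of acetylcholine release, held 41.9% ± 5.08 of male and 40.7% ± 5.58 of female barcodes (SD, n = 3), and the male share was higher in each library. The Gad1/VGAT class held 14.7% ± 0.161 of male and 15.7% ± 0.328 of female barcodes and was lower in males in each library (two-sided exact sign-flip permutation p = 0.25 for both, the smallest possible). The Kenyon class, from markers of the mushroom body neurons that store olfactory memory, held 13.2% ± 6.62 and 12.6% ± 5.22, and the VGlut class 14.97% ± 1.85 and 15.6% ± 1.01. Neither went in 1 direction. The share left unsexed was 5.25%, 4.41% and 1.33% in the Kenyon class of replicates 1 to 3, and 3.05%, 3.40% and 1.27% in the VAChT/ChAT class.

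Within the classes, Sxl and CG18508, an X gene with no name beyond its identifier, were lower in males in all 4 classes tested. The numbers of features called were 156 of 4671 (3.34%) in the Kenyon class, 14 of 6788 (0.206%) in the VAChT/ChAT class, 11 of 5366 (0.205%) in the VGlut class and 35 of 5279 (0.663%) in the Gad1/VGAT class. The features named from the classes were chosen after their values were seen. Together 187 features were called in at least 1 class and 19 in 2 or more, of which 12 were on X and 18 had 1 sign. X features were 17.4% to 17.9% of those tested in the classes. The log2 difference of Sxl was -0.85 in the Kenyon, -0.81 in the VAChT/ChAT, -0.86 in the VGlut and -0.86 in the Gad1/VGAT class. CG18508 had -1.15, -0.67, -0.72 and -0.64, and over all barcodes it held 61.3, 52.9 and 50.4 CPM in males and 105, 85.7 and 76.4 CPM in females (log2 difference -0.69, SE 0.059, adjusted p = 0.0773).

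Muc14A was higher in males in the VAChT/ChAT (3.33), VGlut (3.91) and Gad1/VGAT (5.10) classes, and FBti0102118, an insertion on chromosome 4, in the same 3 classes (2.08, 1.61 and 2.38). lncRNA:cherub was higher in the Kenyon (1.51), VAChT/ChAT (1.079) and Gad1/VGAT (0.98) classes. fru was lower in the Kenyon (-0.58) and Gad1/VGAT (-0.64) classes, where it passed the test that it missed over all barcodes. In the Gad1/VGAT class fru gave 100, 1779 and 163 male UMIs and 223, 1249 and 307 female UMIs. The X genes Bx, a LIM-domain cofactor, Hex-A, a hexokinase, and Dsp1, a chromatin protein, were lower in the Kenyon and Gad1/VGAT classes, by log2 values between -0.54 and -0.37.

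**Figure D5:**
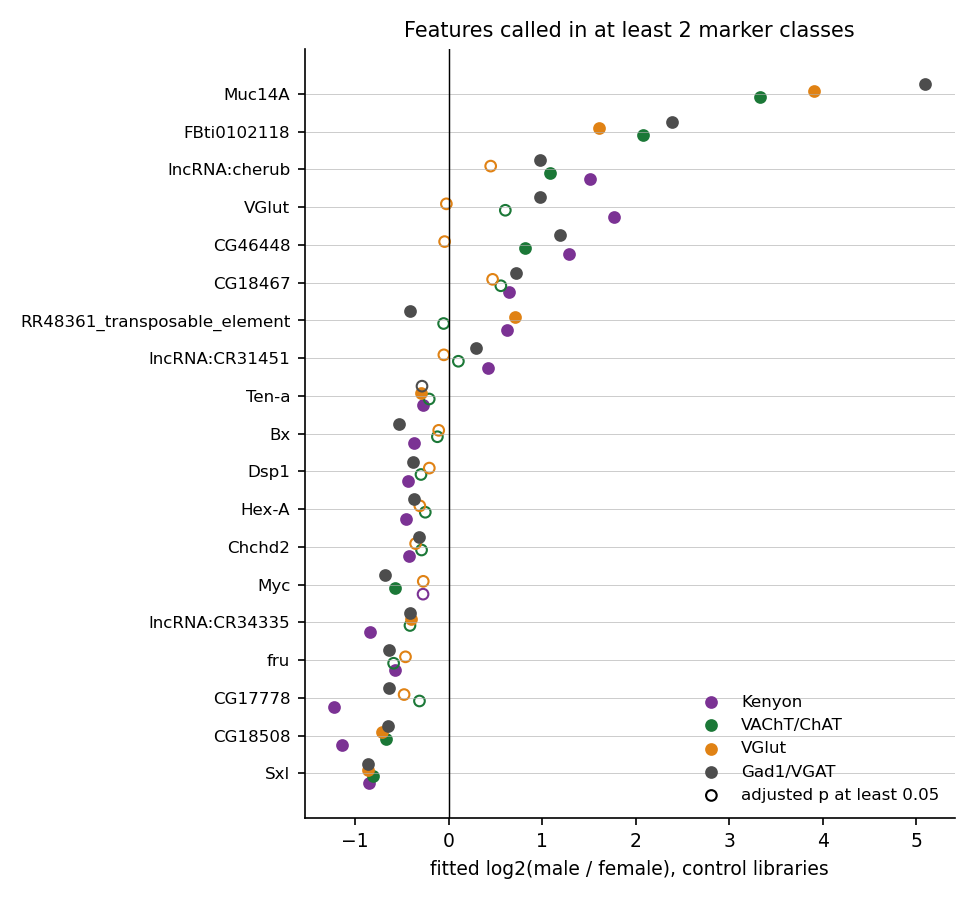
Fitted log2 difference, male minus female, in the 4 marker classes of the control libraries for the 19 features called in at least 2 classes. Filled points passed at an adjusted p under 0.05 and open points did not. Sxl lies at -0.86 to -0.81 and has filled points in all 4 classes, and 1 feature, RR48361_transposable_element, has filled points of opposite sign.

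The Kenyon class gave the most calls, 69 higher (1.48%) and 87 lower (1.86%) in males, with 58 on X, which is 37.2% of those called and 17.9% of those tested. Of the 156, 150 had 1 direction in all 3 pairs, which 34.8% of all features tested in the class had. Crg-1 differed most, with 39, 145 and 22 UMIs in male and 3, 5 and 0 UMIs in female barcodes of replicates 1 to 3 (log2 difference 3.94, SE 0.38, adjusted p = 1.19e-05). The actin-bundling gene sn had 2.01 (SE 0.21), the peptide gene Tk had 2.02 (SE 0.23) and the glutamate transporter VGlut had 1.77 (SE 0.18). Over all barcodes Tk and VGlut had 0.11 and 0.04. Lower in males were CG15459 (-3.17), CG1368 (-2.39), lncRNA:CR45668 (-2.05), the tachykinin-like receptor TkR86C (-1.85) and the adenylate cyclase Ac78C (-1.33). The count fell to 45 without replicate 2 and to 8 without the library as a block. DESeq2 called 32, all of them among the 156.

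Other features passed in a class and not over all barcodes. In the VGlut class the peptide gene AstC (1.45, adjusted p = 0.000841) and the transcription factor gene Fer1 (1.49, adjusted p = 0.01996) were higher in males, and Lmx1a, a LIM homeobox gene, was lower (-0.75, adjusted p = 0.0402). In the Gad1/VGAT class kn, which encodes the transcription factor Collier, was higher (1.92, adjusted p = 0.000257), and AstA (-1.26), the endopeptidase gene Nep1 (-1.13) and CG14687 (-0.96) were lower. VGlut was higher in males in the Gad1/VGAT class too (0.98), but its UMIs entered the rule for that class. CG46448 (2L, 2391660 to 2392105), near VGlut (2L, 2400295 to 2410662), was higher in males in the Kenyon (1.28), VAChT/ChAT (0.81) and Gad1/VGAT (1.19) classes, and over all barcodes it had 0.01. Whether these differences reflect the mix of cells within a class or RNA per cell was not tested.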

How the data were processed

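Droplet libraries for the transcript's 3′ end were made from trypsin-dissociated brains, per the labels. The deposited matrices hold raw UMI counts per gene and barcode, not filtered to cells, and their headers name Cell Ranger 4, while the submitters' processing notes name version 6.0. Build, annotation, strand setting and cell filter are not given in the sources used here. Positions come from Ensembl release 115 (BDGP6.54), which held 22016 of 22064 identifiers.

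UMIs were summed per library and sex and tested with edgeR 4.0.16 in R 4.3.3 (filterByExpr with sex, TMM, quasi-likelihood F-test, two-sided, library as block, Benjamini-Hochberg over all features). The pairing comes from the library: both sexes of a pair were 1 pool in 1 droplet run. CPM in tests are TMM-scaled; roX, free-RNA, Y and marker-list CPM are scaled to total UMIs. Log2 ratios per library add 1 CPM. SE is the absolute log2 difference over the square root of F. On simulated counts for the all-barcode control comparison (8046 features), 72% of 2-fold and 94% of 4-fold changes were recovered, with 17 false calls. The simulation gave each library the same mean levels apart from depth and the changed features. These rates may thus not hold for the measured counts. DESeq2 1.42.0 was the alternative test; clusters used leidenalg 0.10.2.

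A barcode entered the Kenyon class with at least 1% of UMIs in 7 markers and at least 5 of them detected, a transmitter class with at least 2 UMIs and at least 2 times the next transmitter, and a monoamine class with at least 4 UMIs. These limits were set after marker counts had been seen, and 540 of 15285 kept barcodes of control replicate 2 lay within 0.8% to 1.2%. No doublet caller was run; barcodes above 3 times the median UMIs were left out as an alternative.

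Members and gene lists were chosen with earlier results of these data known. The rule names the 10 largest increases and decreases among called features with 1 direction in 3 pairs, the sex determination, dosage compensation and yolk genes, w, elav, tau and features within 50 kb of roX1 and roX2. Other alternatives varied the roX limits, UMI minimum, mitochondrial limit, normalization, low-count filter, depth and cell composition.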

Additional observations from a re-analysis of the deposited data

Results flagged for a closer look

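The sex difference of 2 X features called in the knock-in libraries pointed the other way in every control pair. asRNA:CR44429 had log2 ratios of -0.48, -0.41 and -0.46 in the control pairs and 0.45, 0.64 and 0.50 in the knock-in pairs. The difference of the fitted effects, knock-in minus control, was 1.02 (SE 0.092, edgeR interaction adjusted p = 0.0532), so it missed the threshold. It lies antisense by name, and counts by strand are not stated, so reads of an overlapping gene could not be told apart. CG4025 had -0.28, -0.02 and -0.05 in the control pairs and 0.31, 0.41 and 0.45 in the knock-in pairs, a difference of 0.5 (SE 0.11, edgeR adjusted p = 0.873). No cause was tested for either.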

How the results depend on the processing

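Over all control barcodes 3 features passed. The count was 2 with no replicate block, and 3 with DESeq2 size factors or with TMM from features outside X. It was 157 with DESeq2, 325 with only all-zero features left out, 9 with roX limits of 0.5% and 0.05%, 0 with a single limit of 0.2%, 49 and 0 at minimums of 1000 and 4000 UMIs, 165 without barcodes above 3 times the median UMIs, 77 with equal numbers per cluster, 10 with thinned sums, 112 without yolk-rich barcodes and 0 to 279 with 1 library left out. The cause of these shifts was not tested.

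The knock-in count of 145 was 0 with no replicate block and 101 to 196 with 1 library left out. The Kenyon count of 156 was 8 with no block, 32 with DESeq2, 261 without the filter, 96 at 4000 UMIs and 45 to 221 with 1 library left out. The VAChT/ChAT count of 14 was 2 with no block, 264 without the filter, 24 with a single roX limit, 73 at 1000 UMIs and 6 to 233 with 1 library left out. The VGlut count of 11 was 1 with no block, 3 with DESeq2, 79 without the filter, 2 with strict roX limits, 24 and 1 at 1000 and 4000 UMIs, and 4 to 51 with 1 library left out. The Gad1/VGAT count of 35 was 1 with no block, 14 with DESeq2, 78 without the filter, 53 with strict limits, 9 at 4000 UMIs and 31 to 54 with 1 library left out.

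The X median stayed below the autosomal median on average under the 16 alternatives, between -0.05 and -0.01; with only all-zero features left out, 2 of the 3 libraries were at 0. Differences near 0 changed sign. The median UMI difference of 120.8 became -29 at 4000 UMIs. The gene difference of 2.33 at equal depth became -0.667 at 1000 UMIs and ran from 0 to 4 with 1 library left out. The Kenyon share difference of 0.611 points became -1.32 with strict limits and ran from -0.146 to 1.24 with 1 library left out. The monoamine difference of -0.042 points became 0.0099 with a single limit, 0.053 at 10% mitochondrial, 0.0687 without high-UMI barcodes, and ran from -0.117 to 0.0269.

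Of 642 values of 38 named features under alternatives, 14 lost a call, 33 gained one and 45 changed sign, all 45 in features without a call; the cause was not tested. These are log2 differences. With TMM from features outside X, tau had -0.002 and tra2 -0.0026. With DESeq2 CG1572 had 0.0053. With strict roX limits tra2 had -0.0132, and at 10% mitochondrial -0.0057. At 1000 UMIs tra2 had -0.0951, CG1572 0.0435, CG11696 0.0192, CG11695 -0.0052 and CG1703 -0.0757. At 4000 UMIs tra2 had -0.1233, mof -0.1067, e(y)2 -0.0174, Met 0.0642, CG11696 0.0038, CG11695 -0.0857 and CG1703 -0.0947. Without high-UMI barcodes Clamp had -0.0173, tau -0.0229, CG1572 0.6663 and CG1703 -0.0282. With equal numbers per cluster Clamp had -0.0499 and tau -0.0038. With thinned sums tra2 had -0.0376, Pof -0.0307, e(y)2 -0.3976, Met 0.0236, CG11696 0.066, CG11695 -0.0403, CG1703 -0.0584 and Drak 0.0169. Without yolk-rich barcodes tra2 had -0.0112, Clamp -0.0109, tau -0.018, CG1572 0.0053 and CG1703 -0.0152. With 1 library left out, tra2 ran from -0.049 to 0.0662, Clamp from -0.0351 to 0.0941, tau from -0.0222 to 0.0211, e(y)2 from -0.0572 to 0.2644, Met from -0.0724 to 0.0402, CG1572 from -0.4194 to 0.4307, CG11696 from -0.1764 to 0.0285, CG11695 from -0.0025 to 0.1427 and CG1703 from -0.0518 to 0.1232.

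With 3 pairs, sparse features were the most limited: PGRP-SA, Obp99b, Hml and NimC1 rest on as few as 1 to 3 UMIs in a male sum.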
